A study of Mus musculus with 12 samples.

Results

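The genes of glycolysis, of lactate handling and of pyruvate entry into mitochondria were followed in RNA sequencing of cultured mouse spermatogonial stem cells. The set held 35 of the 22549 gene symbols in the files: 30 genes of general use in the body and 5 isoforms known from germ cells. It was chosen by gene name, from the step each product catalyses or regulates, with earlier results of these data known. All 35 symbols were found in all 12 libraries. The stem cells, called mSSC, came from the testes of wild-type male pups, 5 to 7 days old, of the DBA/C57 F1 cross. In the treatment experiment the cells stood on laminin and received vehicle, 100 nM retinoic acid (RA), or the same RA dose with 0.25 mg/ml cycloheximide (CHX), a blocker of protein synthesis, for 24 h. CHX alone was not analysed here, so the effect of CHX itself cannot be told apart from that of CHX acting with RA. In the induction experiment, GFP-marked mSSC were grown on mitomycin-inactivated Sertoli cells of pups. Induced differentiating spermatogonia (idSG) were sorted on day 3 as cells with GFP and the receptor c-KIT, and induced spermatocytes (iSC) on day 6 as cells with GFP but without c-KIT. They were compared with libraries labelled only as mSSC. Each of the 6 groups had 2 biological replicates, and ± below is the SD over n = 2.

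Glycolysis splits glucose into pyruvate in the cytoplasm. Lactate dehydrogenase interconverts pyruvate and lactate, monocarboxylate transporters carry both across membranes, and the pyruvate dehydrogenase complex turns pyruvate into acetyl-CoA for the citric acid cycle. In the testis, Sertoli cells are known to release lactate that later germ cells take up as fuel. Spermatocytes and spermatids are also known to switch on their own isoforms of several steps: Pgk2, Ldhc, Gapdhs, Pdha2 and Aldoart1.

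The values were FPKM, fragment numbers scaled for transcript length and for the size of the library, so levels of different genes are per length. Differences are log2 ratios of FPKM + 1, tested with limma over every gene whose mean reached 1 FPKM in the experiment. A gene is said to have risen or fallen where its Benjamini-Hochberg adjusted p was under 0.05. Of the 35 members, 32 were tested in each experiment, and Aldoart1, Gapdhs and Pgk2 fell below the minimum. An exact permutation test of 2 against 2 cannot give less than p = 0.333, so every call rests on the model across all genes. With bulk RNA, fewer cells of a type and less RNA per cell cannot be told apart.

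The deposited values of a library summed to between 459580 and 540064 FPKM, and the spacing of the lowest values put relative depths at 83.1% to 99.5% of the first library of the same experiment. Germ-cell markers were present in every group, with a summed level of 859 to 1479 FPKM and 5 of 5 genes at 1 FPKM or more. Spermatocyte markers summed to 203 and 205 FPKM in mSSC and to 920.0 and 565 FPKM in iSC, while spermatogonial stem-cell markers summed to 439.8 and 409 FPKM in mSSC and to 21.6 and 117 FPKM in iSC. Markers of Sertoli cells, the cells under the induced cultures, moved with induction. Their 9-gene sum was 5.13 and 5.04 FPKM in the mSSC libraries, 489 and 1181 FPKM in idSG and 1930.0 and 2639.8 FPKM in iSC, although both induced groups had been sorted for GFP. At 1 FPKM or more stood 3 of the 9 in mSSC, 7 in idSG and 8 in iSC, and 2 of the 9 were listed at 0 in mSSC. Clu and Inha were the largest of the 9, averaging 517 and 181 FPKM in idSG and 1661 and 444 FPKM in iSC. Leydig-cell markers went from 2.61 and 2.42 FPKM in mSSC to 35.4 and 73.0 in idSG and 146 and 102 in iSC. Most of that sum was 1 gene, Star, which averaged 52.1 FPKM in idSG and 117 in iSC. Of the 5 Leydig genes, 1 reached 1 FPKM in mSSC, 2 in idSG and 3 in iSC. Peritubular and fibroblast markers went from 61.3 and 193 FPKM in mSSC to 219 and 158 in idSG and 508 and 380.0 in iSC. In the treatment experiment the Sertoli sum lay between 5.00 and 5.37 FPKM with vehicle or RA. With RA and CHX it was 9.16 and 9.63 FPKM, and 2 of the 9 genes reached 1 FPKM. Clu alone averaged 1.93 FPKM with vehicle, 2.67 with RA and 6.85 with RA and CHX. The part of the Sertoli sum in those results was not tested.

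Together the 35 genes made up 0.591% and 0.560% of the FPKM sum in mSSC, and between 0.516% and 0.652% in all 12 libraries. Gapdh, which oxidises glyceraldehyde 3-phosphate, was the most abundant, at 929 and 878 FPKM in mSSC. Pkm2, pyruvate kinase, followed at 491 and 442 FPKM. The leading isoform of each of 4 more steps stood close together in mSSC: Gpi1, the isomerase that makes fructose 6-phosphate, at 262 and 241 FPKM, Pgam1, phosphoglycerate mutase, at 208 and 199, Eno1, enolase, at 188 and 192, and Aldoa, aldolase, at 198 and 169. The steps at the top of the pathway were lower. Slc2a1, the glucose transporter GLUT1, stood at 41.8 and 30.4 FPKM and Hk2, a hexokinase that traps glucose, at 24.7 and 31.8. Pfkm, the leading phosphofructokinase of these cells, stood at 9.60 and 8.70 FPKM. Tpi1, triose-phosphate isomerase, and Pgk1, the first step that yields ATP, also lay in the lower range: Tpi1 read 33.3 and 38.5 FPKM, and Pgk1 read 25.6 and 27.0. Around pyruvate, Ldha stood at 29.3 and 32.3 FPKM, Slc16a1, the monocarboxylate transporter MCT1, at 29.1 and 26.3, Pdk1, a kinase that inhibits pyruvate dehydrogenase, at 46.4 and 55.4, and Pdhb, the beta subunit of its first enzyme, at 114 and 114.

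Part of these levels is uncertain because of near-identical copies. Other annotated genes matched the Gapdh transcript at 95% identity or more over at least 200 bases in 78 cases, of which 74 were pseudogenes. There were 4 such genes for Pgk1 and for Ldha, 3 for Eno1, 2 for Pkm2 and 1 each for Gpi1, Pfkp, Tpi1, Pgam1, Ldhb, Pdha1 and Pdhb. How reads shared between such copies were split is not given in the sources used here. No member was such a copy of another member.

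**Figure D1:**
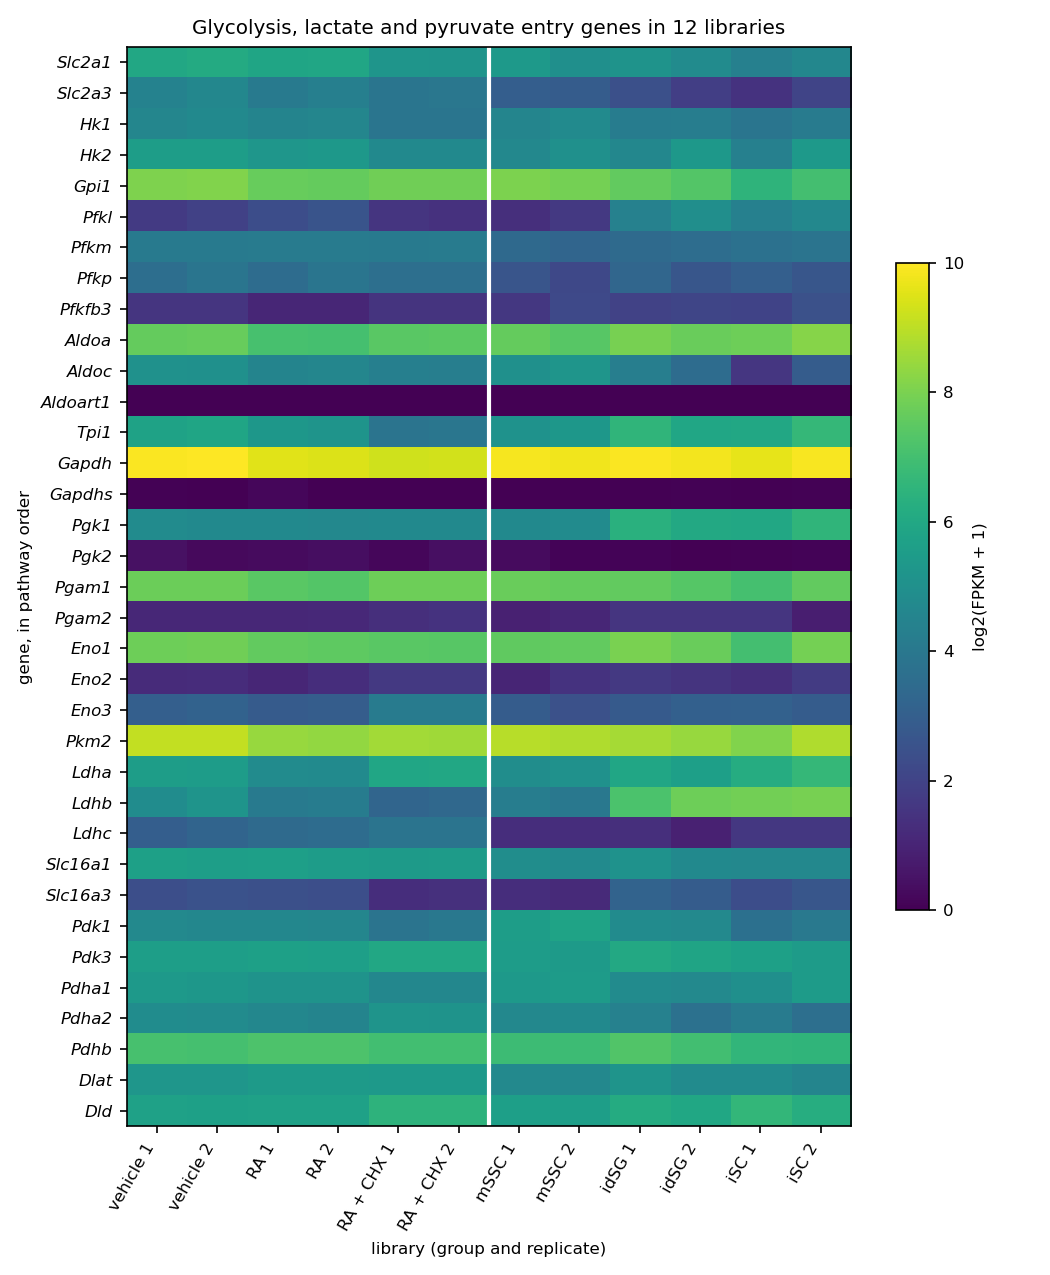
Level of each of the 35 genes (rows, grouped by role) in each of the 12 libraries (columns), as log2(FPKM + 1) on the colour scale. Gapdh, Pkm2, Gpi1, Aldoa, Eno1 and Pgam1 are bright (high) in every library, Ldhb and Pfkl turn high in the 4 induced libraries, and Aldoart1, Gapdhs and Pgk2 stay at or near 0 throughout.

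The first comparison asks what 24 h of RA did to these genes. Of the 32 tested members, 17 were lower with RA, against 29.9% of all genes tested, and 4 were higher, against 22.8%. In both directions 65.6% of the tested members were called, and 52.7% of all tested genes. The median log2 fold change of the members was -0.16, and that of all genes -0.02. The values of the 2 groups did not overlap for 25 members, and for 76.8% of all tested genes. No called member reached 2-fold on the log2(FPKM + 1) scale, the scale of all 2-fold counts below. With quantile normalization 15 members were lower and 7 higher, and the share of higher genes among all calls moved from 43.3% to 55.5%.

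Among the 17 tested glycolytic enzymes 10 fell with RA and 1 rose. Pkm2 read 540.1 and 543 FPKM with vehicle and 351 and 336 with RA (log2 fold change -0.66, SE 0.04, adjusted p = 3.43e-05). Aldoa read 199 and 202 FPKM with vehicle and 136 and 132 with RA (log2 fold change -0.58, SE 0.03, adjusted p = 3.18e-05). Tpi1 read 53.0 and 57.8 FPKM with vehicle and 38.3 and 35.0 with RA (log2 fold change -0.58, SE 0.06, adjusted p = 0.000299). For all 3 enzymes both RA libraries lay below both vehicle libraries. The other enzymes that fell were Gapdh (992 ± 22.2 to 729.7 ± 19.3 FPKM), Gpi1, Pgam1, Eno1, Aldoc, Hk2 and Eno3, with log2 fold changes from -0.50 to -0.18. Pfkl, the phosphofructokinase isoform named for liver, went the other way, from 2.24 and 2.82 to 4.10 and 4.97 FPKM (log2 fold change 0.65, SE 0.11, adjusted p = 0.00246). It remained the least abundant of the 3 phosphofructokinase genes in both groups. Hk1, Pfkm, Pfkp, Pgk1, Pgam2 and Eno2 did not pass the test, and Pgk1 read 27.2 and 26.0 FPKM with vehicle and 26.1 and 24.7 with RA.

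Lactate dehydrogenase, a tetramer built from A and B subunits in most tissues, showed the largest falls. Ldhb, the subunit prominent in heart, read 28.4 and 34.8 FPKM with vehicle and 16.0 and 17.5 with RA (log2 fold change -0.87, SE 0.09, adjusted p = 0.000413). Ldha, the subunit prominent in muscle, read 45.8 and 45.6 FPKM with vehicle and 27.1 and 26.8 with RA (log2 fold change -0.74, SE 0.03, adjusted p = 1.59e-05). Ldhc, the germ-cell subunit, rose from 6.99 and 8.22 to 10.02 and 10.5 FPKM (log2 fold change 0.39, SE 0.07, adjusted p = 0.00356). The groups did not overlap for any of the 3 genes. Their sum went from 81.2 and 88.7 FPKM with vehicle to 53.1 and 54.8 with RA, and the Ldhc share of it from 8.61% and 9.27% to 18.9% and 19.2%.

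Of the 4 transporters, both glucose carriers fell with RA and neither monocarboxylate carrier passed the test. Slc2a1 averaged 65.3 ± 3.93 FPKM with vehicle and 59.0 ± 0.972 with RA, and Slc2a3, the glucose transporter GLUT3, 22.1 ± 2.26 and 17.4 ± 1.92. Of the regulators, Pfkfb3, which makes and breaks the phosphofructokinase activator fructose 2,6-bisphosphate, fell from 1.91 ± 0.0451 to 1.12 ± 0.00600 FPKM (log2 fold change -0.46, adjusted p = 0.00132), and the kinases Pdk1 and Pdk3 did not pass. The pyruvate dehydrogenase complex was divided. Its alpha subunits Pdha1 and Pdha2 fell, at log2 fold changes of -0.19 and -0.28, while Pdhb and Dlat, the acetyltransferase of the complex, rose, at 0.15 and 0.19. Dld, the dihydrolipoamide dehydrogenase shared with other complexes, did not pass. Without vehicle replicate 2 or RA replicate 1 the calls of Slc2a1, Slc2a3 and Eno3 were lost, with adjusted p between 0.095 and 0.144. The call of Slc2a1 was also lost without RA replicate 2 (0.0706), and those of Slc2a1 and Eno3 without either library of RA with CHX (0.0529 to 0.0558). The other 18 of the 21 calls held in all 6 such fits.

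Adding CHX to RA changed more of the genes, as it did across the transcriptome. Against vehicle, 18 of the 32 tested members were lower (43.2% of all genes tested) and 9 higher (36.1%), which is 84.4% of members against 79.3% of all genes. Against RA alone, 15 were lower (42.5% of all genes) and 13 higher (35.1%), 87.5% against 77.6%. The median log2 fold change of the members was -0.19 against vehicle, where that of all genes was -0.05, and -0.06 against RA, where that of all genes was also -0.05. The 2 comparisons share the libraries with CHX, and the first shares its vehicle libraries with RA against vehicle, so they are not independent. Called changes of at least 2-fold were 1 higher and 3 lower against vehicle, and 2 higher and 2 lower against RA. The groups did not overlap for 30 members against vehicle (90.1% of all genes) and for 29 against RA (89.1%).

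Transcripts for the uptake and trapping of glucose were lower throughout with CHX. Slc2a1 read 62.5 and 68.0 FPKM with vehicle, 58.3 and 59.7 with RA and 36.0 and 35.1 with RA and CHX (log2 fold change -0.86, SE 0.04, adjusted p = 2.05e-06 against vehicle). Hk2 read 47.0 and 46.7 FPKM with vehicle, 36.8 and 39.0 with RA and 26.0 and 25.5 with both agents (log2 fold change -0.84, adjusted p = 1.05e-06). Hk1, the other hexokinase, averaged 24.7 ± 1.83 FPKM with vehicle and 13.7 ± 0.0602 with RA and CHX (log2 fold change -0.80, adjusted p = 1.08e-05). All 4 transporters were called lower with CHX than with vehicle and than with RA. Against RA, median-ratio scaling lost the calls of Slc2a3 (adjusted p = 0.0611) and Slc16a1 (0.418). Quantile normalization also lost that of Slc2a3 (0.142). Slc16a3, the monocarboxylate transporter MCT4, known for lactate export, read 4.26 and 4.70 FPKM with vehicle, 4.39 and 4.23 with RA and 1.45 and 1.62 with both agents (log2 fold change -1.11, SE 0.07, adjusted p = 5.88e-06 against vehicle). Against RA alone, the calls of Slc2a3 and Slc16a1 were lost in some fits with a library left out: that of Slc2a3 without RA replicate 2 (adjusted p = 0.162) or either library with CHX (0.126 and 0.05), and that of Slc16a1 without any library but RA replicate 2 (0.0541 to 0.256).

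Further down the pathway members moved in opposite directions. Tpi1 fell furthest, from 53.0 and 57.8 FPKM with vehicle and 38.3 and 35.0 with RA to 13.5 and 14.2 with RA and CHX (log2 fold change -1.92, SE 0.06, adjusted p = 2.30e-07 against vehicle and log2 fold change -1.34, SE 0.06, adjusted p = 1.38e-06 against RA). Eno3, the enolase isoform of muscle, rose to 17.0 and 16.9 FPKM from 7.24 and 7.83 with vehicle and 6.26 and 6.77 with RA (log2 fold change 1.07, SE 0.06, adjusted p = 2.32e-06 and log2 fold change 1.26, SE 0.06, adjusted p = 1.54e-06). It made up 8.82% and 8.95% of the summed enolase FPKM, where Eno1 stood at 173 and 169.8 FPKM. Pfkl, which had risen with RA, read 1.88 and 1.72 FPKM with RA and CHX (log2 fold change -0.98, SE 0.11, adjusted p = 0.000115 against RA). It was also called lower than with vehicle, a call that was lost without vehicle replicate 2 (adjusted p = 0.144) or without either library with CHX (0.0533 and 0.108). Aldoa and Pgam1, lower with RA, were higher with CHX than with RA alone, at log2 fold changes of 0.38 and 0.42. Gpi1 and Pkm2 were likewise called higher than with RA, both at 0.17, but quantile normalization turned both, to -0.049 (adjusted p = 0.208) and -0.10 (adjusted p = 0.0418). Pfkm, Pfkp and Pgk1 passed the test against neither group, and Pgk1 read 26.1 and 25.7 FPKM with both agents.

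Lactate dehydrogenase subunits separated most clearly with CHX. Ldhb fell again, to 8.53 and 9.29 FPKM (log2 fold change -1.71, SE 0.09, adjusted p = 2.95e-06 against vehicle). Ldha, which had fallen with RA, read 60.03 and 62.0 FPKM with RA and CHX, above both other groups (log2 fold change 1.15, SE 0.03, adjusted p = 2.54e-07 against RA and log2 fold change 0.41, adjusted p = 1.46e-05 against vehicle). Ldhc read 13.5 and 13.3 FPKM (log2 fold change 0.35, SE 0.07, adjusted p = 0.00306 against RA). The Ldhb share of summed lactate dehydrogenase FPKM was 34.9% and 39.3% with vehicle, 30.1% and 31.9% with RA and 10.4% and 11.0% with RA and CHX. The summed level was 82.0 and 84.6 FPKM with both agents, between the 2 vehicle libraries.

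The genes that gate pyruvate also changed with CHX. Pdk1 averaged 24.2 ± 1.12 FPKM with vehicle, 23.4 ± 0.749 with RA and 14.2 ± 0.906 with RA and CHX (log2 fold change -0.73, adjusted p = 1.37e-05), while Pdk3, another kinase of the same complex, averaged 47.8 ± 0.117, 49.7 ± 0.667 and 62.1 ± 0.0805 (log2 fold change 0.37, adjusted p = 1.45e-05). In the complex itself, Dld rose to 87.2 and 87.4 FPKM from 52.3 and 50.6 with vehicle and 51.1 and 52.1 with RA (log2 fold change 0.75, SE 0.03, adjusted p = 7.32e-07 against vehicle). Pdha1 fell to 23.9 and 23.9 FPKM from 40.4 and 38.2 with vehicle (log2 fold change -0.69, adjusted p = 2.41e-06), and Pdha2 rose. The small called changes of Pdhb and Dlat against vehicle, at -0.10 and 0.13, were lost when libraries were left out: Pdhb without vehicle replicate 1 (adjusted p = 0.124) or either library with CHX (0.116 and 0.0746), and Dlat without replicate 1 with CHX (0.0521). Against vehicle 24 of the 27 calls held in all 6 fits, and against RA 24 of 28, where Eno1 (0.0651) and Pgam2 (0.0771) were lost without replicate 2 with CHX and Pgam2 also without RA replicate 1 (0.0503).

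**Figure D2:**
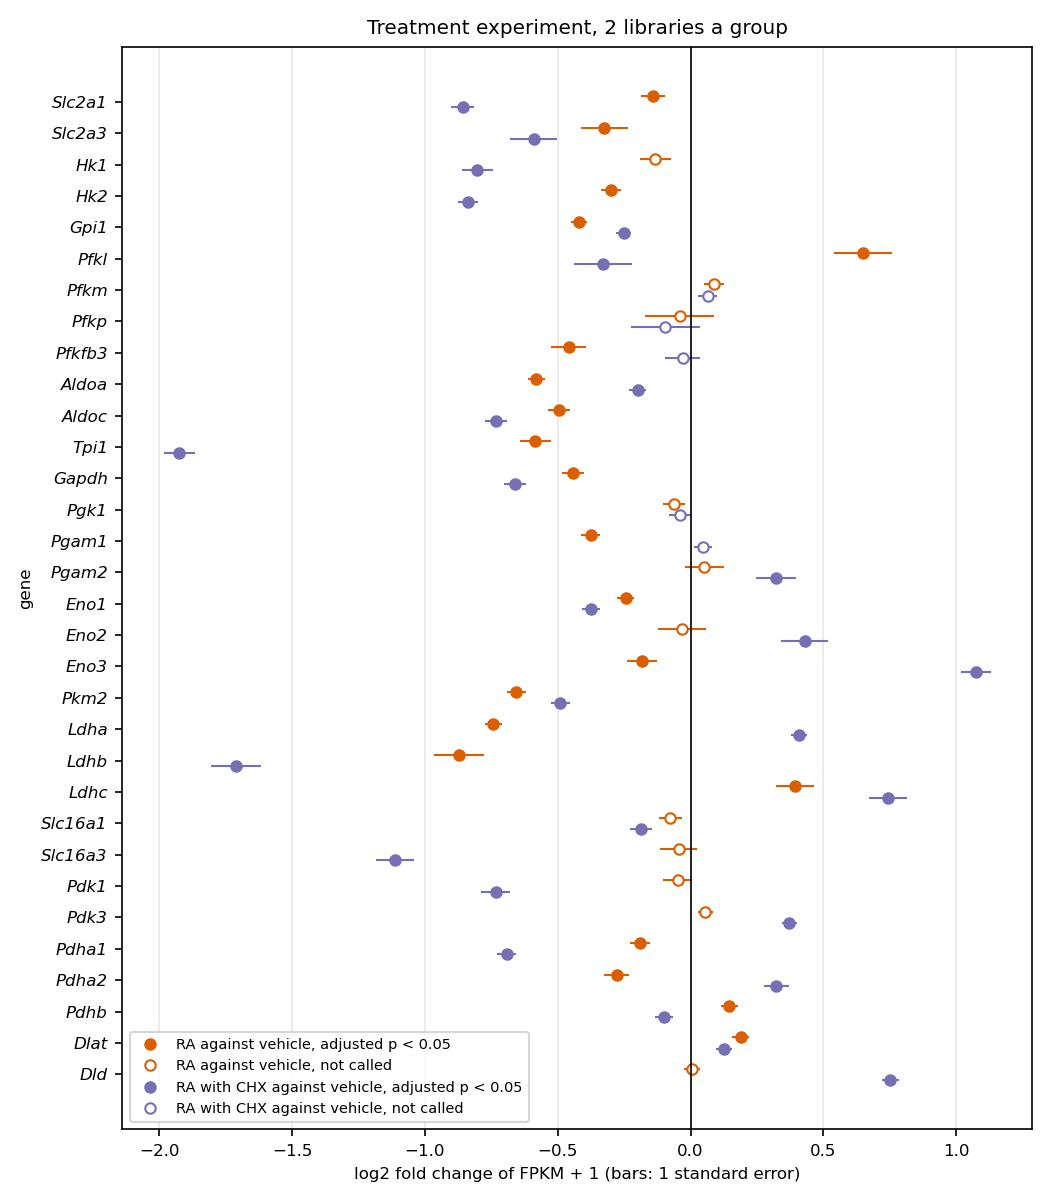
Log2 fold change of FPKM + 1 (x axis, bars 1 standard error) of each tested gene (y axis) with RA and with RA and CHX, both against vehicle. Filled points passed an adjusted p of 0.05 and open points did not. With RA most enzymes sit left of 0, and with CHX added Tpi1, Ldhb and Slc16a3 lie furthest left while Eno3, Dld and Ldhc lie furthest right.

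The induction experiment asks how the genes differ between stem cells and the cells sorted after 3 and 6 days. Induced cells held far more Ldhb and Pfkl transcript than mSSC, and more Pgk1, Tpi1, Ldha and Slc16a3. In idSG 7 of the 32 tested members were higher than in mSSC, against 17.9% of all genes tested, and 2 were lower, against 10.7%. The 28.1% of members called is close to the 28.6% of all genes. The median log2 fold change was 0.21 for the members and 0.05 for all genes. With quantile normalization 7 members were higher and 4 lower, and the share of higher genes among all calls moved from 62.7% to 49.3%. In iSC 8 members were higher than in mSSC (26.2% of all genes) and 7 lower (25% of all genes), 46.9% against 51.2%. Called changes of at least 2-fold were 5 higher and none lower in idSG, and 6 higher and 4 lower in iSC. The groups did not overlap with mSSC for 25 members in idSG (74% of all genes) and for 21 in iSC (79.9%). The Sertoli and Leydig marker sums given above were higher in both induced groups. The peritubular sum was higher in iSC, but its idSG libraries overlapped those of mSSC. Of 7 tested peritubular and fibroblast genes, 1 was higher and 2 were lower in idSG. The part of these markers in the results was not tested.

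The start regions of 5 genes are shown because HIF and MYC proteins, known regulators of glycolytic genes, bind short core motifs. Ldhb, Pfkl, Pgk1 and Slc16a3 were higher in both induced groups in every fit with a library left out. With all libraries Pdk1 was called lower in both groups, but its idSG call did not hold in every such fit. All 5 regions were chosen after the values of their genes were seen. Each is the RefSeq window from 250 bases before to 50 bases after the gene start in GRCm38.p6, another build than the mm9 of the FPKM files, read 5' to 3' along the gene. The windows are Ldhb at chr6:142507908-142508207, minus strand, Pfkl at chr10:78009758-78010057, minus strand, Pgk1 at chrX:106186850-106187149, plus strand, Slc16a3 at chr11:120948817-120949116, plus strand, and the upstream one of 2 for Pdk1 at chr2:71872974-71873273, plus strand. Capitals mark the HIF cores ACGTG and GCGTG, the E-box CACGTG, which contains ACGTG, and the GC box GGGCGG, on either strand.
Ldhb: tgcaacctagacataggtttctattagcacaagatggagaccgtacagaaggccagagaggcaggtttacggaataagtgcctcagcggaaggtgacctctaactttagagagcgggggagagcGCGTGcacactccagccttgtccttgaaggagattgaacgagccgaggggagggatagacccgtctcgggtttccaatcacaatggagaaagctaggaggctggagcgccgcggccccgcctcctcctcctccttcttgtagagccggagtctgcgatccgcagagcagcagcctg
Pfkl: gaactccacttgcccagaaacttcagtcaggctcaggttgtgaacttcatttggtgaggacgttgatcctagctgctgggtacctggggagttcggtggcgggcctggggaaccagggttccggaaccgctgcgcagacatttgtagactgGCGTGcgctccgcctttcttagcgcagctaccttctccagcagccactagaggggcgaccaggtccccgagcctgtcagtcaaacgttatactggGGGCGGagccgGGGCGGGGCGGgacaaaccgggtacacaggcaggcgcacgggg
Pgk1: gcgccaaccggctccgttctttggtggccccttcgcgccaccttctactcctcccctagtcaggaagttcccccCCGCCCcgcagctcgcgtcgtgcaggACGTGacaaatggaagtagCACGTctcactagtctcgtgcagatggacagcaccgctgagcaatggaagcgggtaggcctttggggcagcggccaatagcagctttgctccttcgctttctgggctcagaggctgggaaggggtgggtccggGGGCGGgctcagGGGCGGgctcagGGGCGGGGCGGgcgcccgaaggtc
Slc16a3: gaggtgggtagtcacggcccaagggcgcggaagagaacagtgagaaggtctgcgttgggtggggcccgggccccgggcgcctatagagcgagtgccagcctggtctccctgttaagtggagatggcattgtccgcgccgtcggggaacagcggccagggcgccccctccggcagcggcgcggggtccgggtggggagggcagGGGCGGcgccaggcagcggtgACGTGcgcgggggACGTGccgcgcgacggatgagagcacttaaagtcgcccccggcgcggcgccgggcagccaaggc
Pdk1: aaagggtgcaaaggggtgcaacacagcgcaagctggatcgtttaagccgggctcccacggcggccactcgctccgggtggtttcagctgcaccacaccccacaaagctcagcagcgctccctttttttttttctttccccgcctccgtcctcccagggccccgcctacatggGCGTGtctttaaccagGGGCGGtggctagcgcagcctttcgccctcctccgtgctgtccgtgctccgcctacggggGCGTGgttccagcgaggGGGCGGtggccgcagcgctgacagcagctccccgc
ACGTG occurred 2 times in the Pgk1 and in the Slc16a3 window and GCGTG 1 time in Ldhb, 1 time in Pfkl and 2 times in Pdk1. The GC box occurred 5 times in Pgk1, 3 times in Pfkl, 2 times in Pdk1 and 1 time in Slc16a3. The E-box CACGTG occurred in none of the windows shown. The table matched 32 of the 35 genes with 46 windows. ACGTG or GCGTG was in 32 of these windows, or 69.6%, and in 43.8% of all 32851 promoter windows. CACGTG was in 8.7% of the members' windows and 7.15% of all, and GGGCGG in 50% and 35.7%. These are letter matches, with no binding data behind them. Overlapping windows of the same gene, as for Eno1, Aldoa and Pfkm, were each counted, and base composition was not matched.

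Ldhb read 17.7 and 14.8 FPKM in mSSC, 144 and 222 in idSG and 234 and 249 in iSC. The mean was 11.3-fold higher in idSG (log2 fold change 3.39, SE 0.21, adjusted p = 0.000554) and 14.9-fold higher in iSC (log2 fold change 3.82, SE 0.21, adjusted p = 0.000159) than in mSSC. All 4 induced libraries lay above both mSSC libraries. Ldha read 29.3 and 32.3 FPKM in mSSC, 59.2 and 49.2 in idSG and 71.3 and 100 in iSC (log2 fold change 1.43, SE 0.19, adjusted p = 0.00175 in iSC). Its call in idSG (adjusted p = 0.0234) was lost when any one of the mSSC or idSG libraries was left out, with adjusted p from 0.0648 to 0.142. The summed lactate dehydrogenase FPKM was 48.4 and 48.6 in mSSC, 205 and 272 in idSG and 308 and 351 in iSC. The Ldhb share of that sum was 36.5% and 30.5%, 70.4% and 81.6% and 76.1% and 70.9% in the same order. Thus the B subunit transcript was the minor one in mSSC and the major one in every induced library.

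Pfkl read 1.56 and 2.13 FPKM in mSSC, 20.2 and 29.9 in idSG and 19.5 and 24.3 in iSC. The mean was 13.6-fold higher in idSG (log2 fold change 3.18, SE 0.24, adjusted p = 0.000784) and 11.9-fold higher in iSC (log2 fold change 3.01, SE 0.24, adjusted p = 0.000402). The other 2 phosphofructokinase genes differed far less: Pfkm averaged 9.15 ± 0.636, 10.5 ± 0.705 and 13.0 ± 0.797 FPKM, and Pfkp, the isoform named for platelets, 4.31 ± 1.23, 7.15 ± 2.54 and 6.29 ± 1.38. Pfkm passed the test in iSC (log2 fold change 0.46, adjusted p = 0.0436), but in none of the 6 fits with a library left out (0.0518 to 0.231), and Pfkp in neither group. Pfkl was thereby 9.54% and 15.0% of the summed phosphofructokinase FPKM in mSSC, 51.6% and 64.7% in idSG and 49.8% and 56.3% in iSC.

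**Figure D3:**
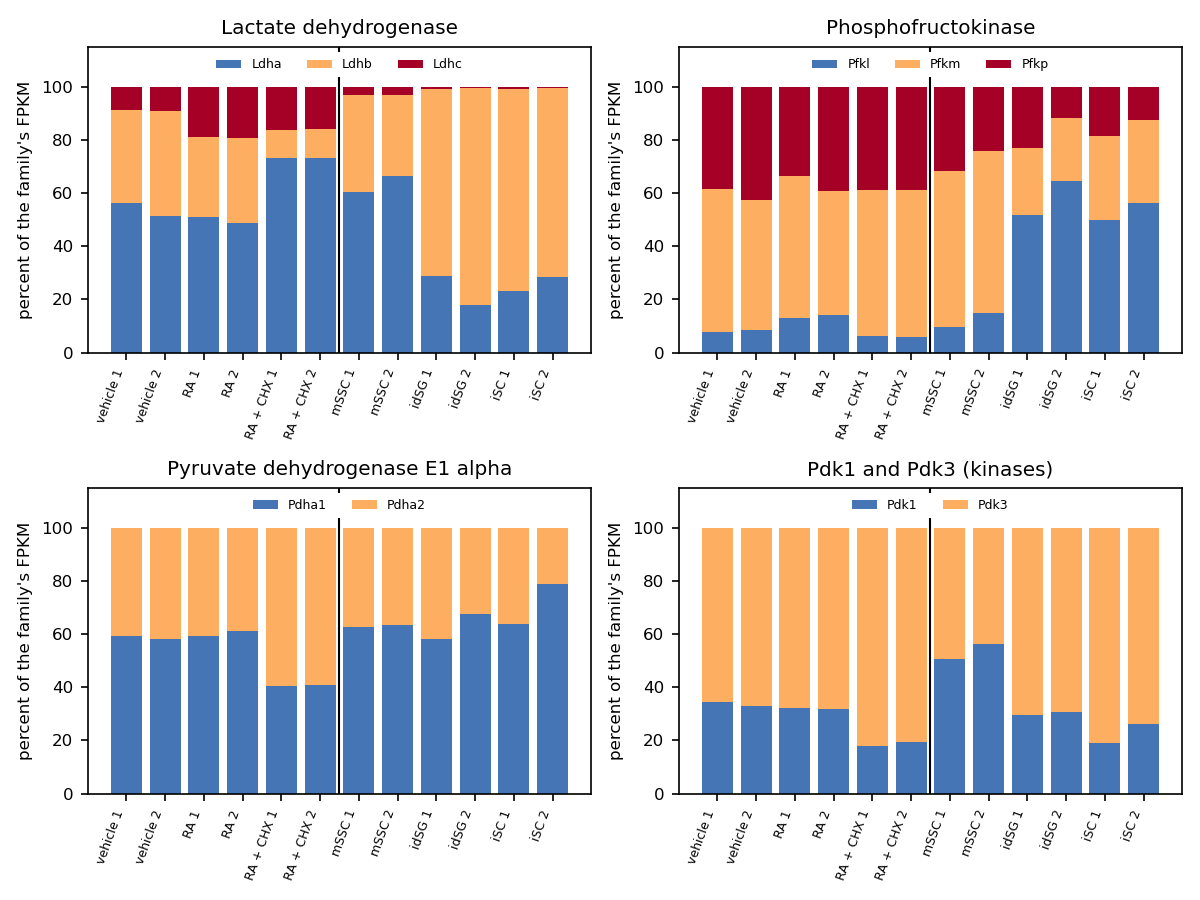
Share (y axis, percent) of each isoform in the summed FPKM of its family in each of the 12 libraries (x axis). The black line divides the treatment from the induction experiment. In the 4 induced libraries Ldhb fills 70.4% to 81.6% and Pfkl 49.8% to 64.7% of its column, and Pdha2 passes Pdha1 only in the 2 libraries with RA and CHX.

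Pgk1 and Tpi1 also rose. Pgk1 read 25.6 and 27.0 FPKM in mSSC, 80.5 and 65.4 in idSG and 62.8 and 93.2 in iSC (log2 fold change 1.43, SE 0.21, adjusted p = 0.0051 in idSG and log2 fold change 1.51, SE 0.21, adjusted p = 0.00188 in iSC). Tpi1 read 33.3 and 38.5 FPKM in mSSC, 91.1 and 58.9 in idSG and 63.1 and 100.0 in iSC (log2 fold change 1.01, adjusted p = 0.0346 and log2 fold change 1.13, adjusted p = 0.0138). The groups did not overlap, but the Tpi1 call in idSG was lost without any one mSSC or idSG library (0.0518 to 0.167), and in iSC without mSSC replicate 1 (0.0758) or iSC replicate 2 (0.0572). Gapdh, Aldoa, Eno1, Eno2, Eno3, Pgam1, Pgam2 and Pkm2 did not pass in either induced group. Gapdh read 981 and 894 FPKM in idSG and 799 and 957 in iSC, so that the groups overlapped.

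Some genes were lower in the induced cells. Aldoc, the aldolase isoform prominent in brain, read 31.8 and 35.9 FPKM in mSSC, 18.6 and 10.5 in idSG and 1.99 and 6.54 in iSC. Its mean in iSC was 7.92-fold lower than in mSSC (log2 fold change -2.87, SE 0.44, adjusted p = 0.00277), and in idSG it did not pass (adjusted p = 0.0824). Gpi1 averaged 251 ± 15.0 FPKM in mSSC, 178 ± 24.4 in idSG and 108 ± 26.7 in iSC (log2 fold change -1.23, adjusted p = 0.00321 in iSC). Both glucose carriers and Hk1 were lower in iSC too: Slc2a1 averaged 36.1 ± 8.004 and 21.9 ± 3.05 FPKM, Slc2a3 6.78 ± 0.316 and 2.46 ± 0.987, and Hk1 24.5 ± 3.29 and 15.2 ± 2.18, at log2 fold changes of -0.69, -1.20 and -0.66. These 3 calls were not stable to leaving out a library. That of Slc2a1 was lost without mSSC replicate 1 (0.18) or iSC replicate 1 (0.116), that of Slc2a3 without either mSSC library or iSC replicate 1 (0.0537 to 0.0669), and that of Hk1 without mSSC replicate 2 (0.127) or iSC replicate 1 (0.0605). None of the 3 passed in idSG. Hk2, the more abundant hexokinase, passed in neither induced group and read 24.7 and 31.8 FPKM in mSSC, 23.8 and 39.4 in idSG and 19.2 and 39.9 in iSC.

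Around lactate and pyruvate, Slc16a3 read 1.5 and 1.29 FPKM in mSSC, 8.03 and 6.47 in idSG and 4.08 and 5.35 in iSC (log2 fold change 1.78, SE 0.21, adjusted p = 0.00316 in idSG and log2 fold change 1.25, SE 0.21, adjusted p = 0.00398 in iSC). Slc16a1 remained the more abundant carrier, at 32.9 and 25.5 FPKM in idSG and 24.6 and 24.3 in iSC, and did not pass in either group. Pdk1 went down at each stage, from 46.4 and 55.4 FPKM in mSSC to 27.1 and 25.1 in idSG and 11.7 and 15.3 in iSC (log2 fold change -1.84, SE 0.17, adjusted p = 0.000664 in iSC against mSSC). Its call in idSG (adjusted p = 0.0104) was lost without mSSC replicate 2 (0.0791) or idSG replicate 2 (0.0645). Pdk3 averaged 44.1 ± 1.35, 60.5 ± 5.70 and 46.8 ± 4.69 FPKM. Of Pdk1 and Pdk3 together, Pdk1 was 50.7% and 56.2% in mSSC, 29.6% and 30.8% in idSG and 19.0% and 26.1% in iSC. In the complex, Dld read 48.9 and 47.3 FPKM in mSSC and 96.5 and 75.0 in iSC (log2 fold change 0.81, adjusted p = 0.00581), while Pdha1 was called lower in idSG only and Pdha2 lower in iSC only, which is not a test of a difference between those groups. In idSG the calls of Pdha1 (0.0899 to 0.17) and Pdk3 (0.0802 to 0.238) were lost without any one mSSC or idSG library, and in iSC that of Pdha2 without either mSSC library or iSC replicate 2 (0.127 to 0.169). In all 6 fits 4 of the 9 calls in idSG were kept, those of Pfkl, Pgk1, Ldhb and Slc16a3. In iSC 9 of 15 were kept, those 4 with Ldha, Aldoc, Gpi1, Pdk1 and Dld.

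Between the 2 induced groups few members passed the test. On simulated data the fit called 35 of 100 genes set 2-fold apart in this comparison. Far fewer genes differed there than were called in the data, so the share missed in the data is not known. A gene not called may still differ. In iSC against idSG no member was higher, against 4.46% of all genes, and 2 were lower, against 6.75%. That is 6.25% of the tested members and 11.2% of all tested genes. At an unadjusted p of 0.05 limma passed 8 members, and the groups did not overlap for 15 (60.8% of all genes). Pdk1 (log2 fold change -0.91, adjusted p = 0.0281) and Pdhb (156 and 125 FPKM in idSG, 95.3 and 91.2 in iSC, log2 fold change -0.58, adjusted p = 0.0481) were the 2. Both calls were lost in 5 of the 6 fits with a library left out: Pdk1 passed only without iSC replicate 2 and Pdhb only without idSG replicate 2, with adjusted p elsewhere of 0.0568 to 0.157 and 0.0915 to 0.183.

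The 2 libraries of an induced group differed from each other more than those of other groups. The median absolute log2 difference between replicates over the 32 tested members was 0.28 in idSG and 0.38 in iSC, where it was 0.21 and 0.24 over all tested genes. Over the members it was 0.14 in mSSC and 0.02 to 0.06 in the 3 treatment groups. In iSC 22 of the 32 members were higher in replicate 2, with Aldoc furthest apart. In idSG 7 of 32 were higher in replicate 2. The idSG library with the higher Sertoli marker sum, replicate 2, had more Ldhb and Pfkl than replicate 1 but less Pgk1, Tpi1, Ldha and Slc16a3. The iSC library with the higher sum, again replicate 2, had more of all 6. That library also had a higher stem-cell marker sum (117 against 21.6 FPKM) and a lower spermatocyte marker sum (565 against 920.0 FPKM). The link of these genes with any marker sum was not tested.

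**Figure D4:**
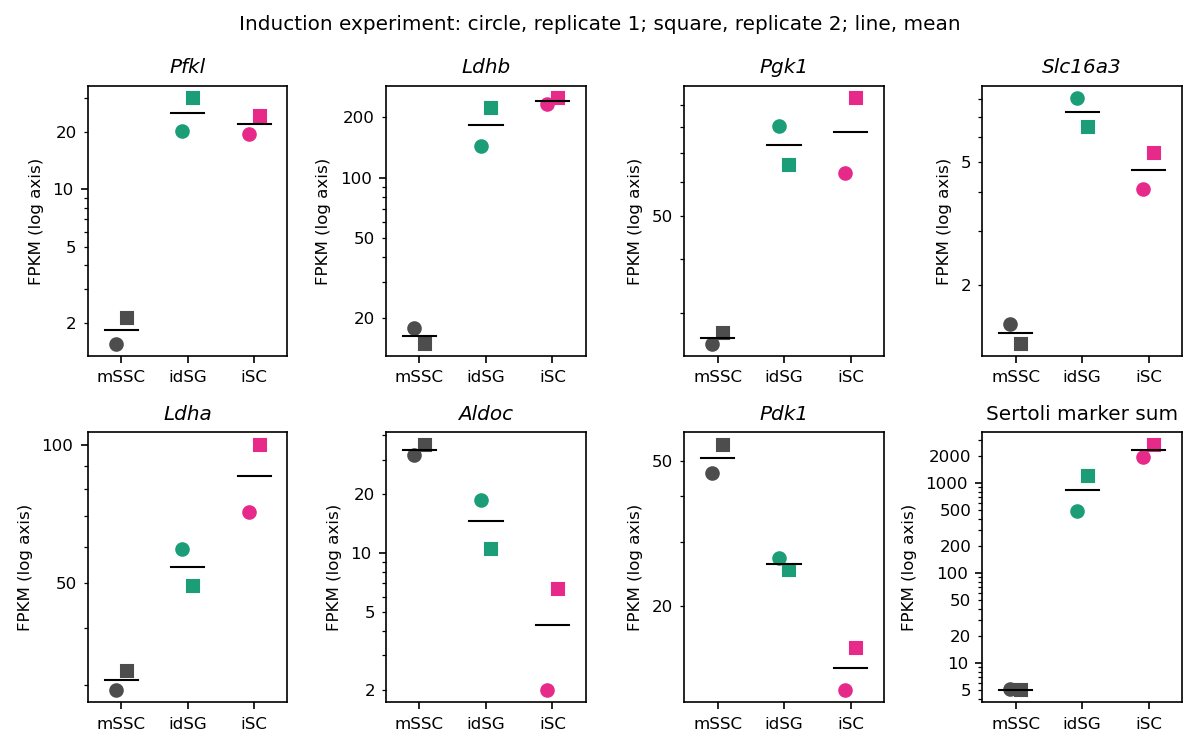
FPKM on log axes (y) of 7 genes and the sum of 9 Sertoli-cell markers in the 2 libraries of mSSC, idSG and iSC (x axis; circles replicate 1, squares replicate 2, lines the group mean). All induced libraries lie above mSSC for Pfkl, Ldhb, Pgk1, Slc16a3, Ldha and the marker sum, and below it for Aldoc and Pdk1.

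**Figure D5:**
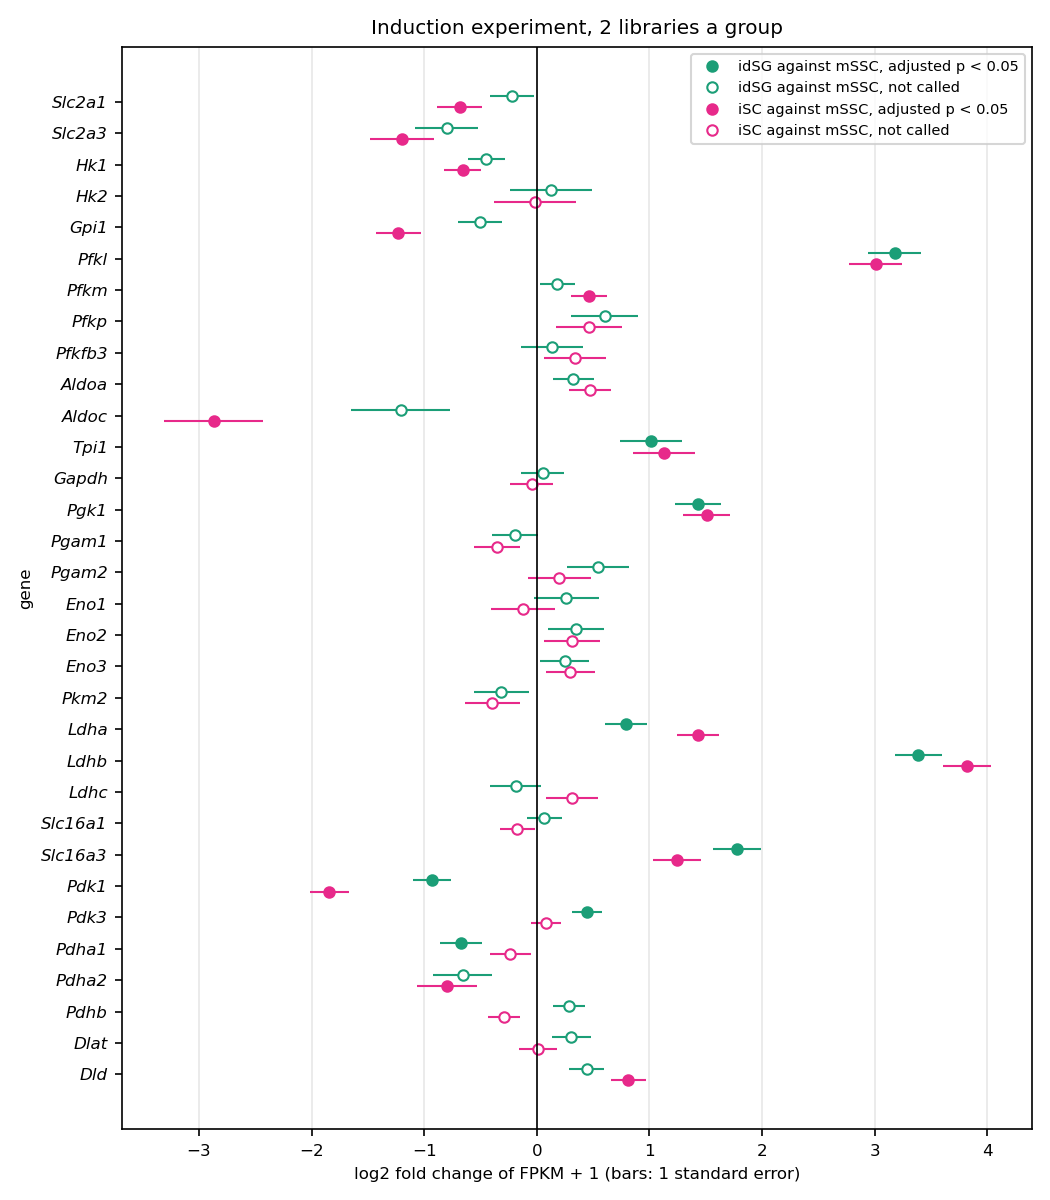
Log2 fold change of FPKM + 1 (x axis, bars 1 standard error) of each tested gene (y axis) in idSG and iSC against the same mSSC libraries. Filled points passed an adjusted p of 0.05 and open points did not. Ldhb and Pfkl stand near or above 3 in both groups, and Aldoc and Pdk1 lie furthest left in iSC.

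The germ-cell isoforms were divided into those that were present and those that were not. Aldoart1, an aldolase known from the testis, was listed at 0 in all 12 libraries. Gapdhs, the sperm glyceraldehyde-3-phosphate dehydrogenase, reached at most 0.144 FPKM, and Pgk2, the phosphoglycerate kinase of meiotic and later cells, at most 0.356 FPKM. In iSC, Pgk2 read 0.0439 and 0.0790 FPKM beside 62.8 and 93.2 for Pgk1. Both genes stayed below the minimum set for testing in every library. Ldhc and Pdha2 were measurable in stem cells already. Their transcripts were 73.8% and 76.0% identical to those of Ldha and Pdha1, below the level at which copies were counted as near-identical. The Aldoart1 transcript was closer to that of Aldoa, 92.6% identical over 1510 bases, though also below that level. Whether this bears on its listing at 0 was not tested.

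Ldhc read 1.49 and 1.49 FPKM in mSSC, 1.54 and 0.880 in idSG and 2.10 and 2.09 in iSC. No comparison of the induction experiment passed for it, with log2 fold changes of -0.19 (SE 0.23, adjusted p = 0.564) in idSG and 0.31 (SE 0.23, adjusted p = 0.282) in iSC against mSSC. Its share of summed lactate dehydrogenase FPKM was 3.08% and 3.06% in mSSC and 0.681% and 0.594% in iSC. In the treatment experiment it rose with RA and again with CHX, as given above. Vehicle-treated cells read 6.99 and 8.22 FPKM and the mSSC of the induction experiment 1.49 and 1.49, 2 sets that were not tested against each other.

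Pdha2, a gene without introns known from spermatocytes, read 24.7 and 25.7 FPKM in mSSC and 27.8 and 27.4 with vehicle. In mSSC it made up 37.5% and 36.7% of the summed FPKM of Pdha1 and Pdha2. With RA it fell to 23.7 and 21.5 FPKM (log2 fold change -0.28, SE 0.05, adjusted p = 0.00281). With RA and CHX it was higher than in either group, at 35.1 and 34.5 (log2 fold change 0.32, SE 0.05, adjusted p = 0.000525 against vehicle). Pdha1 fell with CHX, and the Pdha2 share of their sum was 59.5% and 59.1% there and 40.8% and 41.8% with vehicle. In induced cells Pdha2 read 19.9 and 12.2 FPKM in idSG and 17.1 and 11.6 in iSC (log2 fold change -0.80, adjusted p = 0.0406 against mSSC).

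Other genes of carbon metabolism were counted from lists set by function, also with earlier results of these data known. Of 34 further glycolysis and pyruvate genes 31 were in the files. With RA 9 of the 18 tested rose and 3 fell, beside 22.8% and 29.9% of all tested genes and 4 and 17 of the 32 members. In idSG 7 of 19 rose and none fell, beside 17.9% and 10.7% of all genes. The mitochondrial pyruvate carrier was measured through its older symbols. Brp44l, now Mpc1, averaged 22.9 ± 0.488 FPKM in mSSC, 42.6 ± 0.643 in idSG and 64.7 ± 12.6 in iSC (log2 fold change 1.44, adjusted p = 0.001 in iSC). Brp44, now Mpc2, averaged 151 ± 7.79 FPKM in mSSC and 87.8 ± 23.7 in iSC (log2 fold change -0.80, adjusted p = 0.0265), and fell with RA from 139 ± 3.13 to 99.8 ± 7.37. Bpgm, which makes 2,3-bisphosphoglycerate, fell from 20.7 ± 0.215 FPKM with RA to 11.2 ± 0.00658 with RA and CHX.

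Of 18 citric acid cycle genes, all tested, 12 rose and 1 fell with RA and CHX against RA, beside 35.1% and 42.5% of all tested genes. Mdh2, mitochondrial malate dehydrogenase, went from 515 ± 15.2 to 981 ± 2.26 FPKM (log2 fold change 0.93, adjusted p = 1.28e-06) and Sdha, a subunit of succinate dehydrogenase, from 132 ± 0.436 to 237 ± 4.25. In iSC against mSSC, where 26.2% of all genes rose and 25% fell, 3 of the 18 rose and 5 fell, Mdh2 from 542 ± 1.03 to 220.2 ± 62.3 FPKM. With RA alone, where 22.8% of all genes rose and 29.9% fell, 3 of the 18 rose and 5 fell. Of 9 tested pentose phosphate genes, 3 rose and 4 fell with RA, and in iSC against mSSC 4 rose and 1 fell, beside the same shares of all genes. G6pdx, its entry enzyme, averaged 22.0 ± 0.0637 FPKM with vehicle, 17.0 ± 0.00912 with RA and 9.82 ± 0.344 with RA and CHX, and rose from 20.5 ± 0.381 in mSSC to 34.7 ± 3.99 in iSC. Of 3 tested gluconeogenesis genes 2 rose in iSC against mSSC (26.2% of all genes), among them Pck2, mitochondrial PEP carboxykinase, from 3.65 ± 0.137 to 9.99 ± 1.13 FPKM.

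Among 10 tested genes of HIF and MYC regulation 3 rose and 3 fell with RA, beside 22.8% and 29.9% of all genes. Mycn averaged 41.3 ± 0.293 FPKM with vehicle, 19.9 ± 2.60 with RA and 2.504 ± 0.0506 with RA and CHX (log2 fold change -1.02, adjusted p = 0.000104 for RA against vehicle). Hif1a, the oxygen-regulated subunit, rose from 28.3 ± 0.449 with RA to 54.5 ± 0.125 FPKM with RA and CHX, and from 28.0 ± 0.785 in mSSC to 54.8 ± 0.342 in iSC (log2 fold change 0.95, adjusted p = 0.00159). Epas1, of the same list, fell from 11.8 ± 0.383 FPKM with RA to 3.53 ± 0.204 with RA and CHX (log2 fold change -1.504). For RA with CHX against RA, 1 of the 10 tested genes rose and 6 fell, beside 35.1% and 42.5% of all genes. Myc read 0.444 and 0.524 FPKM in mSSC, 20.1 and 64.8 in idSG and 26.1 and 42.7 in iSC (log2 fold change 4.65, adjusted p = 0.00243 in idSG). Mycn went the other way, at 27.6 and 36.4 FPKM in mSSC, 14.7 and 9.84 in idSG and 9.61 and 14.3 in iSC. Its log2 fold changes against mSSC were -1.33 in idSG (adjusted p = 0.0134) and -1.36 in iSC (adjusted p = 0.00607). Epas1 was called lower in idSG, at -0.96, and Egln2 lower in iSC, at -1.03. In idSG 4 of 11 tested genes of this list rose and 2 fell, beside 17.9% and 10.7% of all genes, and in iSC 2 rose and 4 fell, beside 26.2% and 25%. The Sertoli marker sum moved with the same induced groups, and its part in these values was not tested either.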

How the data were processed

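RNA from 12 libraries, 2 in each of 6 groups, was isolated with TRIZOL, freed of DNA and sequenced by Illumina HiSeq, per the labels' protocols. The authors deposited FPKM values per gene, made with TopHat2 2.0.6 and Cuffdiff on mm9, per the submitters' processing notes. Neither the Cuffdiff version nor its scaling options were stated. FPKM hold no absolute depth, and the spacing of the lowest values gave relative depths of 83.1% to 99.5% of the first library of each experiment. One vehicle file repeats 25 lines, none of a member, and these were counted once.

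Rows of one symbol were summed and analysed as log2(FPKM + 1) in R 4.3.3 with limma 3.58.1 (trended variance, a group term alone, 3 residual df), each experiment fitted alone over genes averaging 1 FPKM or more and p adjusted by Benjamini-Hochberg over all of them. On simulated data the fit called 35 to 39 of 100 genes set 2-fold apart in the induction comparisons. In the treatment comparisons it called 94 to 97 of 100. Each simulation held 100 such genes and 100 set further apart, far fewer than the genes called in the data. These shares are therefore not the sensitivity of the fit on the data themselves. Near copies were sought with blastn 2.17.0, and figures drawn with matplotlib 3.10.9. The members and lists were chosen with earlier results of these data known. Values in every library were given for the germ-cell isoforms (Gapdhs and Pgk2, near 0, mainly by their highest value), for the 5 called members of largest log2 fold change in each comparison and for the most abundant member of each step. From each other list up to 2 higher and 2 lower called genes averaging 5 FPKM or more qualified, and some of these were printed. A few further members, such as Slc16a1, Pgk1 and Gapdh, were given in full after their values were seen. Alternatives changed the pseudocount, the filter, the scaling, the copies, the trend, the replicate block, the libraries fitted together and, for the members and the counts of all genes, each library in turn. The p-values compare a group difference with a replicate spread pooled over the groups of an experiment and moderated by limma over all genes. Each group gave 2 replicates, whose separate cultures the labels do not detail.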

Additional observations from a re-analysis of the deposited data

How the results depend on the processing

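The counts of called members kept within 1.5 times of the reported ones under every alternative except these. One fit over all 12 libraries (the cause was not tested) called 2 members for RA against vehicle (418 of all genes), 14 for RA with CHX against vehicle (6156), 14 for RA with CHX against RA (5712), 17 for idSG against mSSC (6513) and 12 for iSC against idSG (5205). For iSC against idSG, where 2 members and 1415 genes were called, a pseudocount of 0.1, median-ratio scaling and no trend each left 1 member, quantile normalization gave 4, and no filter left 0 members (6 at an unadjusted p of 0.05) and 623 genes. Left-out libraries gave 18 to 22 members (5088 to 6055 genes) for RA against vehicle, 24 to 27 (9008 to 9773) for RA with CHX against vehicle, 24 to 27 (8699 to 9591) for RA with CHX against RA, 4 to 12 (961 to 4194) for idSG against mSSC, 0 to 4 (8 to 1547) for iSC against idSG and 10 to 16 (3478 to 6308) for iSC against mSSC. Quantile normalization reversed Gpi1 (-0.049) and Pkm2 (-0.10) for RA with CHX against RA, and moved the median of all genes from -0.05 to 0.06 for RA with CHX against vehicle and from 0.05 to -0.06 for idSG against mSSC. With the replicate number as a block, RA against vehicle gave 22 members, idSG against mSSC 9, iSC against mSSC 14 and iSC against idSG 1 (911 genes). Same-numbered libraries did not deviate together (correlations from -0.03 to 0.09), so no pairing by number was seen. With 2 libraries a group, such correlations cannot exclude a shared culture or batch. No symbol had further rows once repeated lines were counted once, so keeping the highest copy of a symbol could change no count. FPKM give no absolute depth, so no counting error could be set on low genes.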
